A study of Mus musculus with 9 samples.

Results

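The regions nearest to the centromeres of the mouse autosomes were examined in alphaTC1 cells, a murine pancreatic alpha cell line. They were selected by position: every autosomal consensus region whose start lies below 8 Mb. No measured value enters this rule, but the rule was set with earlier results of these data known. The rule gave 3260 of 80827 regions. Chromatin accessibility was read by ATAC-seq, in which a transposase cuts open DNA, 5 days after transduction with an shRNA against Smndc1, an shRNA against Atrx or an empty vector. Each of the 3 groups has 3 libraries that the labels call individual biological replicates, and whether they came from separate transductions is not stated. All groups share 1 cell line, and the control virus is an empty vector rather than an shRNA against another target. The study asked how chromatin changes in alpha cells after knockdown of either gene; an shRNA acts on the RNA, so accessibility gives no check of the knockdowns.

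Mouse autosomes begin at the centromere, and the mm10 assembly (GRCm38) starts its sequence at 3 Mb, so the window of 3 to 8 Mb is the first stretch with unique sequence. The centromere itself is flanked by blocks of satellite repeat packed as heterochromatin, where SUV39H enzymes methylate histone H3, HP1 proteins bind that mark, KMT5B and KMT5C methylate histone H4, and DNA is methylated. ATRX, a chromatin remodeler that works with the chaperone DAXX to deposit histone H3.3, is known to bind pericentric heterochromatin and telomere repeats. SMNDC1 is a Tudor domain protein of the spliceosome. The satellite blocks are not in the assembled sequence, so the values here are for the gene-bearing DNA beside them.

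Promoter sequences are shown for 5 genes of the window. Hspbp1 (a cochaperone of Hsp70), Mtrf1l (a mitochondrial translation release factor) and Sac3d1 (a SAC3 domain protein of the centrosome) are genes whose start lies in an open region that differed with Smndc1 shRNA in 1 of the fits below. Suv39h2 and Kmt5c are heterochromatin enzymes whose own promoters lie in the window. Each line gives the 250 bases before the RefSeq start on GRCm38.p6, 5′ to 3′ on the gene's strand. Capitals mark the letters GGGCGG (the GC box core), CCAAT or TTAGGG (the telomere repeat unit) on either strand. Hspbp1 lies at chr7:4684982-4685231, minus strand. Mtrf1l lies at chr10:5823944-5824193, minus strand. Sac3d1 lies at chr19:6118587-6118836, minus strand. Suv39h2 lies at chr2:3474987-3475236, minus strand. Kmt5c lies at chr7:4739877-4740126, plus strand.
Hspbp1: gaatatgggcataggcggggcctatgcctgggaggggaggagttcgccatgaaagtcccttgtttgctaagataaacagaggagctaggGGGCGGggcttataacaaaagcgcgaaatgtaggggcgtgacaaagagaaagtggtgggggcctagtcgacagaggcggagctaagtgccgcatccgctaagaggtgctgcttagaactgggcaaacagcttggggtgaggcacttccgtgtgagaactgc
Mtrf1l: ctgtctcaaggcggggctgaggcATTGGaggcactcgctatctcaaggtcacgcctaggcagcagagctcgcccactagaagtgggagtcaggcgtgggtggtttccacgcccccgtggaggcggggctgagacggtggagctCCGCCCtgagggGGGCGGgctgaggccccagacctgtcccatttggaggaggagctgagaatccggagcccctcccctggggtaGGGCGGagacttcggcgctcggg
Sac3d1: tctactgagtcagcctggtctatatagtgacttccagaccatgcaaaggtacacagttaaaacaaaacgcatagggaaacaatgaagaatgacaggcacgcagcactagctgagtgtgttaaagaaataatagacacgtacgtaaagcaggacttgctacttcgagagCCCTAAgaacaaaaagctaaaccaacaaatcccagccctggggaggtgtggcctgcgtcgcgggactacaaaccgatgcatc
Suv39h2: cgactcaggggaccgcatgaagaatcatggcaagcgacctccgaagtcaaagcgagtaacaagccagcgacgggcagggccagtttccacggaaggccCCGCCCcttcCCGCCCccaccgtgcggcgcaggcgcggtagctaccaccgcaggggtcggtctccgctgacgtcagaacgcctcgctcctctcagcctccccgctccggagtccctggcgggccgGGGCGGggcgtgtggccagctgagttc
Kmt5c: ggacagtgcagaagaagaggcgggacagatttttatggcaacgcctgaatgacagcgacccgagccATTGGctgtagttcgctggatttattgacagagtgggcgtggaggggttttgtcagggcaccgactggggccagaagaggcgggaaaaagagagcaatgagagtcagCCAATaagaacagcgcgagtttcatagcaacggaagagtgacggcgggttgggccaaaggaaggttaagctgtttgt

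The window holds very different amounts of open chromatin on different autosomes. It had 430 regions on chromosome 11, 424 on chromosome 5 and 327 on chromosome 19, but 24 on chromosome 3 and 5 on chromosome 14, where the first region starts at 7765758. Set against the rest of the same chromosome, the density of regions was highest on chromosome 19, with 65.4 regions per Mb in the window and 29.3 elsewhere. It was lowest on chromosome 14, with 1.0 and 12.7 regions per Mb. The window was denser than the rest on 9 of 19 autosomes, and over all autosomes it held 34.3 regions per Mb, against 33.1 elsewhere.

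**Figure D1:**
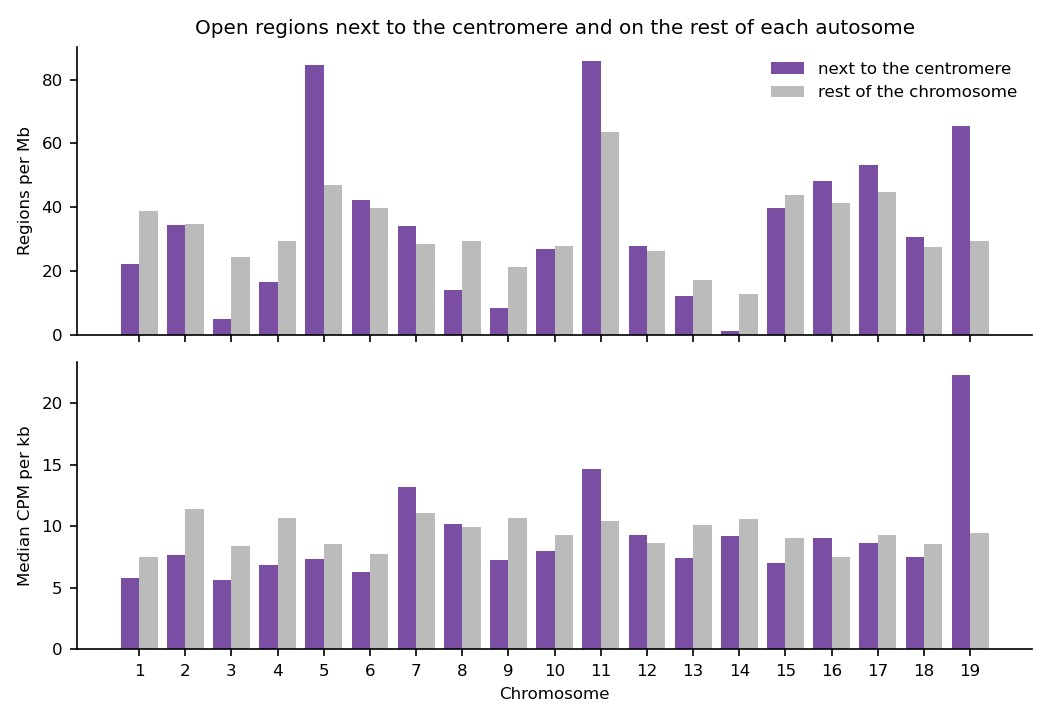
Regions per Mb (top) and median accessibility in CPM per kb of region (bottom), for the window next to the centromere (left bar) and the rest of each autosome (right bar). Chromosomes 5, 11 and 19 have the densest windows, and the window of chromosome 19 has the highest median level, 22.3 CPM per kb against 9.48 on the rest of that chromosome.

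Accessibility per length was close to that of other autosomal regions. The median was 8.76 CPM per kb of region in the window and 9.14 elsewhere, where CPM is TMM-scaled counts per 1 M counts of the library, averaged over the 9 libraries. Of the pericentric regions, 10.2% were among the strongest 10% of all regions. The windows of chromosomes 11 and 19 held 19.4% and 17.4% of all pericentric counts, so sums over the window lean on these 2 chromosomes. Place in relation to genes was also alike: 15.9% of pericentric regions lay at an end of a coding gene (up to 1000 bp beyond it or 500 bp into the gene), 41.1% in a gene body and 43.0% between genes. The shares elsewhere on the autosomes were 15.5%, 42.0% and 42.5%.

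On each autosome the strongest region of the window was the same kind of element in most cases: 15 of 19 lay at a gene end. The highest of all, at 146 CPM, lies at an end of Ogdh (chr11:6291473-6292263), which encodes a subunit of the oxoglutarate dehydrogenase complex. Others were at Cyp51 on chromosome 5 (120 CPM), a sterol synthesis enzyme, at Nmt2 on chromosome 2 (102 CPM), an N-myristoyltransferase, and at Leng8 on chromosome 7 (100 CPM). None of these 19 regions passed the test in any comparison by either fit described below. The median region had 4.92 CPM in the window and 5.19 CPM elsewhere on the autosomes, so low levels are common. Of the regions closest to the centromere, 15 of 19 stood under 6 CPM. The first on chromosome 13 (chr13:3322211-3322711) was below the filter on low counts. The first regions above 6 CPM were at Eif4enif1 on chromosome 11 (61.5 CPM), Tgs1 and Tmem68 on chromosome 4 (25.1 CPM), Ighmbp2 and Mrpl21 on chromosome 19 (22.7 CPM) and Crem on chromosome 18 (19.7 CPM). Crem, a cAMP-responsive transcription factor gene, stood at 0.22 ± 0.24 (log2 fold change ± SE) with Smndc1 shRNA and -0.03 ± 0.24 with Atrx shRNA against empty vector.

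Each library had between 5.29 and 8.15 M counts in consensus regions. The libraries differ in contrast between strong and weak regions in a way that crosses the groups: the strongest 10% of regions held 38.5% to 38.8% of counts in replicate 3 of each group and 43.3% to 48.8% in the other 6. The fits are therefore given in pairs. The first is the quasi-likelihood test of edgeR with TMM factors, and the second replaces these by trended offsets, a loess curve per library that makes the libraries alike in contrast. The threshold for a call was 0.05 for p adjusted by Benjamini-Hochberg over all 80345 tested regions. Of the pericentric regions 3242 could be tested, and 18 were below the filter. Of 7 alpha cell markers 6 had a gene-end region, among them Pcsk2 at 65.8 CPM, Irx2 at 60.9 CPM and Gcg at 31.4 CPM. Ins1, Ins2, Pdx1, Sst, Hhex, Ppy and the 3 endothelial markers had none, whereas Nkx6-1 (49.2 CPM), Mafa (51.7 CPM), Cela1 (19.4 CPM), Cd68 (17.8 CPM) and Pdgfra (5.32 CPM) did.

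The window as a whole took the same share of each library in all groups. Pericentric regions held 4.06%, 4.004% and 4.07% of counts with Smndc1 shRNA, 3.98%, 4.01% and 4.10% of counts with Atrx shRNA, and 3.98%, 4.001% and 4.10% of counts with empty vector. The groups overlap throughout, and the highest value of each group is that of its low-contrast replicate 3. The means were 4.05 ± 0.0359% for Smndc1 shRNA, 4.03 ± 0.0645% for Atrx shRNA and 4.03 ± 0.0619% for empty vector (SD, n = 3 each). The exact two-sided permutation test gave p = 0.8 for each shRNA against empty vector (n = 3 each). With 3 libraries against 3 this test cannot go below 0.1.

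Measured against neighbouring DNA the result was similar. The count in the window divided by that in the next 5 Mb of the same chromosomes averaged 1.27 for Smndc1 shRNA, 1.26 for Atrx shRNA and 1.285 for empty vector (exact two-sided permutation test, p = 0.3 for each shRNA against empty vector, n = 3 each). Within the window, the first megabase beside the centromere was the band in which Atrx shRNA and empty vector did not overlap. It held 0.735%, 0.740% and 0.730% of counts with Atrx shRNA and 0.761%, 0.754% and 0.761% with empty vector. All 3 Atrx shRNA libraries are below all 3 empty vector libraries. The means were 0.735 ± 0.00516% with Atrx shRNA and 0.759 ± 0.00435% with empty vector (SD, n = 3 each), a log2 ratio of -0.05, with p = 0.1 in the exact permutation test, the smallest it allows, and 0.5 after adjustment over the 5 bands of 1 Mb. Smndc1 shRNA had 0.756%, 0.736% and 0.738%, with a mean between theirs, and overlapped both Atrx shRNA and empty vector. The exact permutation test gave p = 0.4 for Smndc1 shRNA against Atrx shRNA and 0.2 against empty vector.

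The mean of Atrx shRNA in the first megabase was lower on 15 of the 18 autosomes that have a region there. This is a description, since the band was taken up because its sum separated. The autosomes are parts of that sum in the same libraries, not replicates. Among the 15, chromosome 12 had means of 0.0675% with Atrx shRNA and 0.06753% with empty vector. Chromosome 2 contributed most, with a mean of 0.0580% of counts with Atrx shRNA and 0.0626% with empty vector. Chromosomes 1 and 3 went the other way, and chromosome 17 was at 0.0358% in both groups. With the trended offsets applied to the counts, the first megabase held 0.733 ± 0.00610% with Atrx shRNA and 0.759 ± 0.00906% with empty vector (SD, n = 3 each), again with no overlap. The other 4 bands overlapped between Atrx shRNA and empty vector. A lower share with Atrx shRNA was not limited to the centromere side: the last 5 Mb of the autosomes held 6.24%, 6.21% and 6.22% of counts with Atrx shRNA and 6.28%, 6.26% and 6.41% with empty vector, again without overlap (exact permutation p = 0.1, n = 3 each, 0.8 after adjustment).

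By chromosome, Smndc1 shRNA and empty vector separated in 3 of 19 windows. How often stretches of equal length elsewhere in the genome separate was not computed. The counts of separated windows therefore do not set the windows apart from the genome. With 3 libraries against 3, some of 19 windows can separate without an effect of the shRNA. The window of chromosome 7 held 0.267%, 0.271% and 0.264% of counts with Smndc1 shRNA and 0.279%, 0.293% and 0.272% with empty vector, so the Smndc1 shRNA libraries were all lower. That of chromosome 2 held 0.180%, 0.174% and 0.169% with Smndc1 shRNA and 0.195%, 0.188% and 0.180% with empty vector, again all lower, though by a narrow gap. The window of chromosome 19 held 0.694%, 0.736% and 0.730% with Smndc1 shRNA and 0.679%, 0.693% and 0.680% with empty vector, all higher. Each has p = 0.1 in the exact two-sided permutation test (n = 3 each) and 0.475 after adjustment over 19 autosomes. After the trended offsets the gap remained for chromosome 7, at 0.268 ± 0.00253% with Smndc1 shRNA and 0.280 ± 0.00712% with empty vector, while chromosomes 2 and 19 overlapped. With those offsets Smndc1 shRNA was also lower in all libraries on chromosome 3 (mean 0.0211% with Smndc1 shRNA and 0.0251% with empty vector) and chromosome 14 (0.00378% with Smndc1 shRNA and 0.00442% with empty vector), each with exact permutation p = 0.1. No autosome separated Atrx shRNA from empty vector. Between the shRNAs, Smndc1 shRNA was lower in all libraries on chromosome 7 (mean 0.267% with Smndc1 shRNA and 0.281% with Atrx shRNA) and chromosome 12 (0.153% with Smndc1 shRNA and 0.157% with Atrx shRNA), each with exact permutation p = 0.1 and 0.95 after adjustment. With trended offsets chromosome 7 kept this gap and chromosome 12 overlapped.

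**Figure D2:**
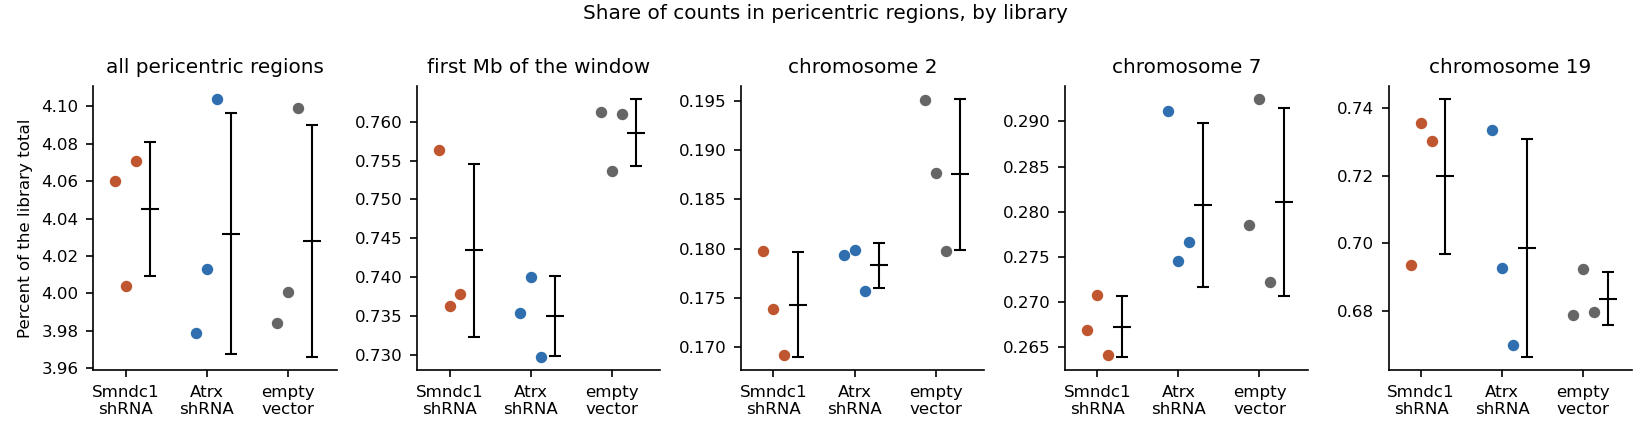
Percent of each library's counts that lie in pericentric regions as a whole, in the first megabase of the window, and in the windows of chromosomes 2, 7 and 19, for the 3 libraries of each group (points) with mean and SD (black). The vertical axes do not start at 0. The whole window overlaps between groups, at 3.98% to 4.10%, while the first megabase is lower in all 3 Atrx shRNA libraries than in empty vector.

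A fit over summed counts gave each chromosome its own test. Counts were summed in bins of 5 Mb counted from 3 Mb, so that the first bin of an autosome is the window, and 523 bins were fitted with edgeR. None of the 19 first bins passed the adjusted threshold in either comparison with empty vector, where 0% of all bins did. At an unadjusted p under 0.05 there were 2 first bins for Smndc1 shRNA, where 6.69% of all bins passed, and 0 for Atrx shRNA, where 2.29% did. Between Smndc1 shRNA and Atrx shRNA 0 of the first bins passed either threshold, beside 0% of all bins at the adjusted and 2.87% at the unadjusted one. For bins, the trended version divided the region counts by the offsets, summed and rounded them, and kept TMM factors. It gave 4 first bins for Smndc1 shRNA (chromosomes 2, 3, 6 and 9) of 37 bins in all, and 1 for Atrx shRNA (chromosome 2) of 26, at the unadjusted threshold, and again 0 at the adjusted one. DESeq2 called 0 bins against empty vector for either shRNA, and 1 bin, not a first one, between the shRNAs. With TMM factors on the raw counts the 2 for Smndc1 shRNA were chromosome 2 (log2 fold change -0.08 ± 0.03 SE) and chromosome 3 (-0.21 ± 0.09), both with adjusted p = 0.655. Chromosome 19 stood at 0.11 ± 0.05 with Smndc1 shRNA and 0.04 ± 0.05 with Atrx shRNA. Over the 19 first bins the median size of the log2 fold change was 0.06 with Smndc1 shRNA and 0.03 with Atrx shRNA, beside 0.05 and 0.04 over all bins.

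**Figure D3:**
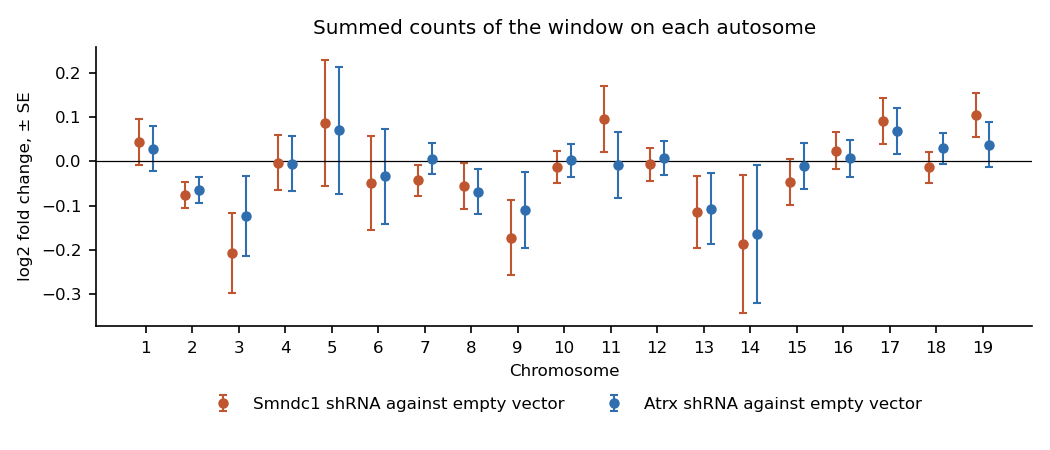
Log2 fold change with its SE, from the fit over 5 Mb bins, for the pericentric window of each autosome, with Smndc1 shRNA (left point) and Atrx shRNA (right point) against empty vector. None is called; the lowest values, on chromosomes 3 and 14, come from the windows with 24 and 5 regions.

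With Atrx shRNA against empty vector, no pericentric region passed the test with TMM factors, where 0% of all tested regions did. The smallest adjusted p was 0.221, DESeq2 also called 0, and 171 of 3242 regions (5.27%) had an unadjusted p under 0.05, beside 5.75% of all regions. The median log2 fold change was 0.02 over pericentric regions and 0.01 over all regions. All 3 Atrx shRNA libraries lay above all 3 empty vector libraries at 150 pericentric regions (4.63%, beside 4.83% of all regions) and below them at 166 (5.12%, beside 5.65%), together 9.75%, beside 10.5% of all regions. In bulk libraries a change in few cells and a smaller change in all cells cannot be told apart. By place, the median was -0.02 at pericentric gene ends, -0.01 in gene bodies and 0.08 between genes; over all regions of those places it was -0.02, -0.01 and 0.04.

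The medians varied between windows. With Atrx shRNA the median over the regions of a window ran from -0.16 on chromosome 14 (5 tested regions) and -0.14 on chromosome 9 (40 regions) to 0.21 on chromosome 1 (108 regions). With Smndc1 shRNA it was -0.23 on chromosome 9, 0.17 on chromosome 1 and 0.14 on chromosome 5 (424 regions), and the lowest was on chromosome 3, at -0.29 over 21 regions. The shRNA comparisons share the empty vector libraries, and none of these medians has a test. With trended offsets the median on chromosome 1 was 0.11 for each shRNA, and that on chromosome 5 was 0.07 with Smndc1 shRNA.

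With trended offsets, 3 pericentric regions rose and 1 fell with Atrx shRNA, 0.123% of those tested, beside 0.266% of all regions (0.194% higher and 0.0722% lower). The clearest lies 94.57 kb from Fndc1, a fibronectin domain gene (chr17:7643496-7643996). It had 22.8, 14.3 and 13.1 CPM with Atrx shRNA and 8.29, 8.69 and 7.04 CPM with empty vector. The groups do not overlap, and Smndc1 shRNA overlapped both at 12.4, 16.1 and 8.63 CPM. Its log2 fold change was 1.13 ± 0.24 (adjusted p = 0.00825), and the call was lost without Atrx shRNA replicate 1, empty vector replicate 1 or empty vector replicate 2 (adjusted p up to 0.320).

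The other 3 were a region 352.00 kb from Arid1b, a subunit gene of the BAF remodeling complex, a region 214.35 kb from Pcmtd1, and a region inside Frmd4a, which encodes a FERM domain protein. Near Arid1b (chr17:4641794-4642294) the libraries had 11.1, 7.64 and 6.98 CPM with Atrx shRNA and 3.26, 2.33 and 4.85 CPM with empty vector (log2 fold change 1.37 ± 0.33, adjusted p = 0.0293). Smndc1 shRNA was also above empty vector there, at 10.1, 6.61 and 7.11 CPM, and is called with the same fit (1.24 ± 0.33, adjusted p = 0.0290); both comparisons share the empty vector libraries. Inside Frmd4a (chr2:4260572-4261194) the level fell to 25.5, 28.1 and 24.0 CPM with Atrx shRNA, against 49.0, 44.1 and 30.2 CPM with empty vector (-0.62 ± 0.15, adjusted p = 0.0282). At Frmd4a Smndc1 shRNA, at 27.6, 30.7 and 26.7 CPM, overlapped both groups (-0.46 ± 0.15 against empty vector, adjusted p = 0.1). Near Pcmtd1 the change was 1.29 ± 0.33 (adjusted p = 0.0455). The means there were 8.64 CPM with Atrx shRNA, 7.51 CPM with Smndc1 shRNA and 3.61 CPM with empty vector. All Smndc1 shRNA libraries were also above empty vector there, without a call (1.08 ± 0.33, adjusted p = 0.0778). Smndc1 shRNA against Atrx shRNA was 0.16 ± 0.16 at Frmd4a and -0.21 ± 0.31 near Pcmtd1, neither called. Leaving out Atrx shRNA replicate 1 lost all 4 calls, as did leaving out empty vector replicate 1 or 2. Without Atrx shRNA replicate 2, 3 of them were lost, without Smndc1 shRNA replicate 1, 2 were, and without replicate 3 of Atrx shRNA or of empty vector, 1 was.

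With Smndc1 shRNA against empty vector, 1 pericentric region rose and 2 fell with TMM factors, 0.0925% of those tested, beside 0.156% of all regions. The median log2 fold change was 0.04 over pericentric regions and 0.02 over all regions. All 3 Smndc1 shRNA libraries lay above all 3 empty vector libraries at 212 pericentric regions (6.54%, beside 5.76% of all regions) and below them at 204 (6.29%, beside 7.02%), together 12.8%, and the share over all regions was also 12.8%. By direction, 0.0199% of all regions were called higher and 0.136% lower. At an unadjusted p under 0.05 there were 255 pericentric regions (7.87%), beside 8.09% of all regions.

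The region that rose lies inside Dbnl (chr11:5792461-5792961), the gene of a drebrin-like adaptor that binds actin. It had 25.4, 21.5 and 28.1 CPM with Smndc1 shRNA, 9.96, 6.87 and 8.44 CPM with Atrx shRNA, and 6.22, 7.52 and 8.30 CPM with empty vector. All 3 Smndc1 shRNA libraries stand well above the other 6, which overlap each other. The log2 fold change against empty vector was 1.77 ± 0.24 (adjusted p = 8.87e-06), the smallest adjusted p of any region in the genome for this comparison. It was called in all 9 fits that leave out 1 library each, with an adjusted p of at most 0.00633, without empty vector replicate 1. Against Atrx shRNA the change was 1.56 ± 0.24 (adjusted p = 0.000188), a call lost only without Atrx shRNA replicate 2 (adjusted p = 0.0515).

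The regions around Dbnl changed less. Of 31 regions within 150 kb on either side, none was called with TMM factors; the nearest lie 4.25 kb to the left and 9.73 kb to the right. Their log2 fold changes ran from -0.67 to 1.0, with a median of 0.20, and 25 were above 0. Over the window of chromosome 11 the median was 0.09 and 64.2% were above 0, beside 0.02 and 51.8% over all regions. With trended offsets 1 of the 31 was called: a region 4.84 kb from Myl7, an atrial myosin light chain gene, and 98.84 kb from the Dbnl region. It had 10.7, 11.9 and 12.0 CPM with Smndc1 shRNA, 5.62, 7.45 and 11 CPM with Atrx shRNA, and 5.33, 4.54 and 7.51 CPM with empty vector. Its log2 fold change was 1.07 ± 0.29 (adjusted p = 0.0272), and the call was lost without Smndc1 shRNA replicate 1 or 2 or empty vector replicate 1 or 2.

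**Figure D4:**
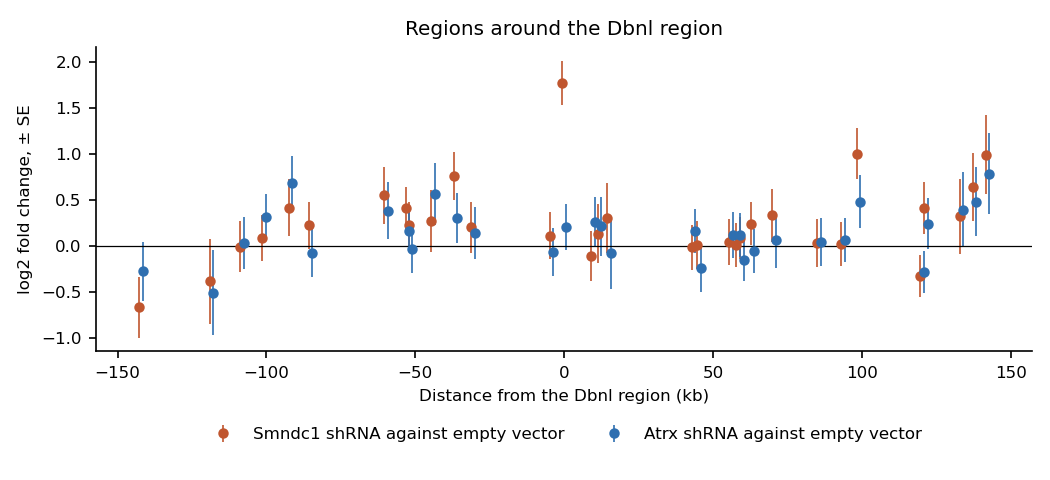
Log2 fold change with its SE for the regions within 150 kb of the Dbnl region, by distance from it, with Smndc1 shRNA and Atrx shRNA against empty vector (TMM factors). The Dbnl region stands alone at 1.77 with Smndc1 shRNA; the next highest, at 1.0, is near Myl7.

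The first of the regions that fell overlaps an end of Gm52363 and lies inside Svil, which encodes the actin-binding protein supervillin (chr18:4980240-4981022). It had 6.18, 10.2 and 6.26 CPM with Smndc1 shRNA, 12.7, 11.5 and 14.9 CPM with Atrx shRNA and 15.6, 16.7 and 15.8 CPM with empty vector. Both comparison groups lie above all 3 Smndc1 shRNA libraries. The log2 fold change against empty vector was -1.09 ± 0.24 (adjusted p = 0.0295), lost without Smndc1 shRNA replicate 1 or 3 or empty vector replicate 1 or 2 (adjusted p up to 0.286).

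The other lies 74.75 kb from Tac1, the gene of the tachykinin precursor (chr6:7479256-7480308). It had 13.8, 15.3 and 13.4 CPM with Smndc1 shRNA and 28.4, 37.1 and 19.3 CPM with empty vector. Here the empty vector libraries spread widely and empty vector replicate 3 is closest to Smndc1 shRNA. The log2 fold change was -1.0 ± 0.23 (adjusted p = 0.0419), lost without any 1 of the Smndc1 shRNA libraries, Atrx shRNA replicate 2, or empty vector replicate 1 or 2 (adjusted p up to 0.595).

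With trended offsets, 7 pericentric regions rose and 22 fell with Smndc1 shRNA, 0.895% of those tested, beside 1.12% of all regions (0.413% higher and 0.708% lower). The 3 regions above are among them, and 2 of the others were called in all 9 fits that leave out 1 library; these and the following were singled out after their values were seen. The first lies inside Cdk14, a cyclin-dependent kinase gene (chr5:5300229-5300764). It had 48.4, 63.9 and 51.3 CPM with Smndc1 shRNA, 90.7, 79.8 and 52.6 CPM with Atrx shRNA, and 109, 90.5 and 67.3 CPM with empty vector. All Smndc1 shRNA libraries are below empty vector, while Atrx shRNA overlaps both. The log2 fold change was -0.65 ± 0.12 (adjusted p = 0.000125; -0.70 and adjusted p = 0.396 with TMM factors). Cdk14 is long and holds 57 of the pericentric regions, of which this was the 1 called.

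The second lies inside Ttyh1, which encodes a membrane protein of the tweety family (chr7:4124243-4124937). It fell to 26.6, 26.4 and 22.0 CPM with Smndc1 shRNA, against 46.7, 39.7 and 44.3 CPM with empty vector (-0.75 ± 0.15, adjusted p = 0.000666). Atrx shRNA, at 35.0, 40.3 and 30.0 CPM, was above Smndc1 shRNA and overlapped empty vector. A further region 20.28 kb from Ttyh1 (chr7:4098302-4099254) also fell (-0.94 ± 0.23, adjusted p = 0.00999). That call was lost without Smndc1 shRNA replicate 1 or empty vector replicate 1 or 2.

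At gene ends, 1 pericentric region rose and 7 fell with trended offsets, 1.55% of the 516 tested. Over all gene ends 77 rose and 83 fell, 1.26%. The promoter region of Hspbp1, printed above, fell to 31.2, 34.9 and 26.1 CPM with Smndc1 shRNA, against 43.1, 68.6 and 43.7 CPM with empty vector (-0.71 ± 0.14, adjusted p = 0.000796, lost without empty vector replicate 2 at 0.145). The Mtrf1l promoter region had 51.9, 55.4 and 34.3 CPM with Smndc1 shRNA and 71.8, 80.2 and 54.8 CPM with empty vector (-0.51 ± 0.12, adjusted p = 0.00988, lost without empty vector replicate 2 at 0.124). Its lowest empty vector library, replicate 3, is below the highest Smndc1 shRNA library, so the raw levels overlap. The promoter region of Sac3d1 was the gene end that rose (0.46 ± 0.13, adjusted p = 0.0323): 63.7, 69.3 and 47.4 CPM with Smndc1 shRNA and 50.5, 47.2 and 37.1 CPM with empty vector, which overlap in raw level. In each group of these 2 promoters replicate 3 is the lowest library.

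Other gene ends that fell were those of Esrra, the gene of the orphan nuclear receptor ERR alpha (-0.50 ± 0.13, adjusted p = 0.0263), Zfp78, a zinc finger gene (-0.43 ± 0.11, adjusted p = 0.0199), Olfr1347, an olfactory receptor gene (-1.64 ± 0.45, adjusted p = 0.0315), and the Svil region described above. At Esrra the libraries had 47.5, 42.4 and 25.7 CPM with Smndc1 shRNA, 62.3, 43.1 and 36.8 CPM with Atrx shRNA and 53.2, 64.8 and 49.2 CPM with empty vector. All Smndc1 shRNA libraries are below empty vector, while Atrx shRNA overlaps both. That call was lost without Smndc1 shRNA replicate 2 or 3 or empty vector replicate 2 or 3.

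Away from genes, a region 9.98 kb from Adcy9, an adenylyl cyclase gene, fell to 17.2, 24.9 and 26.9 CPM with Smndc1 shRNA, against 36.7, 42.4 and 36.0 CPM with empty vector (-0.68 ± 0.15, adjusted p = 0.00456, lost without Smndc1 shRNA replicate 1 or empty vector replicate 2). A region 2.01 kb from Tbc1d10c, a Rab GTPase-activating protein gene, fell too (-0.92 ± 0.24, adjusted p = 0.0265). Those furthest from 0 were weak regions: one inside Dync1i1, a dynein subunit gene (-2.21 ± 0.55), with 1.47, 0.678 and 1.18 CPM with Smndc1 shRNA and 3.85, 4.54 and 5.01 CPM with empty vector, and one 32.01 kb from Zfhx4, a homeobox gene (-2.09 ± 0.52), both with adjusted p = 0.0145. Regions near Thoc5 (an mRNA export complex gene), inside Fzd1 (a Wnt receptor gene) and 201.98 kb from Igfbp3 (an IGF-binding protein gene) rose, each with an adjusted p between 0.0459 and 0.0490. Of the 29 calls, 26 were lost without empty vector replicate 2, 20 without empty vector replicate 1 and 8 without empty vector replicate 3. Leaving out Smndc1 shRNA replicate 1, 2 or 3 lost 18, 16 and 11 of them.

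**Figure D5:**
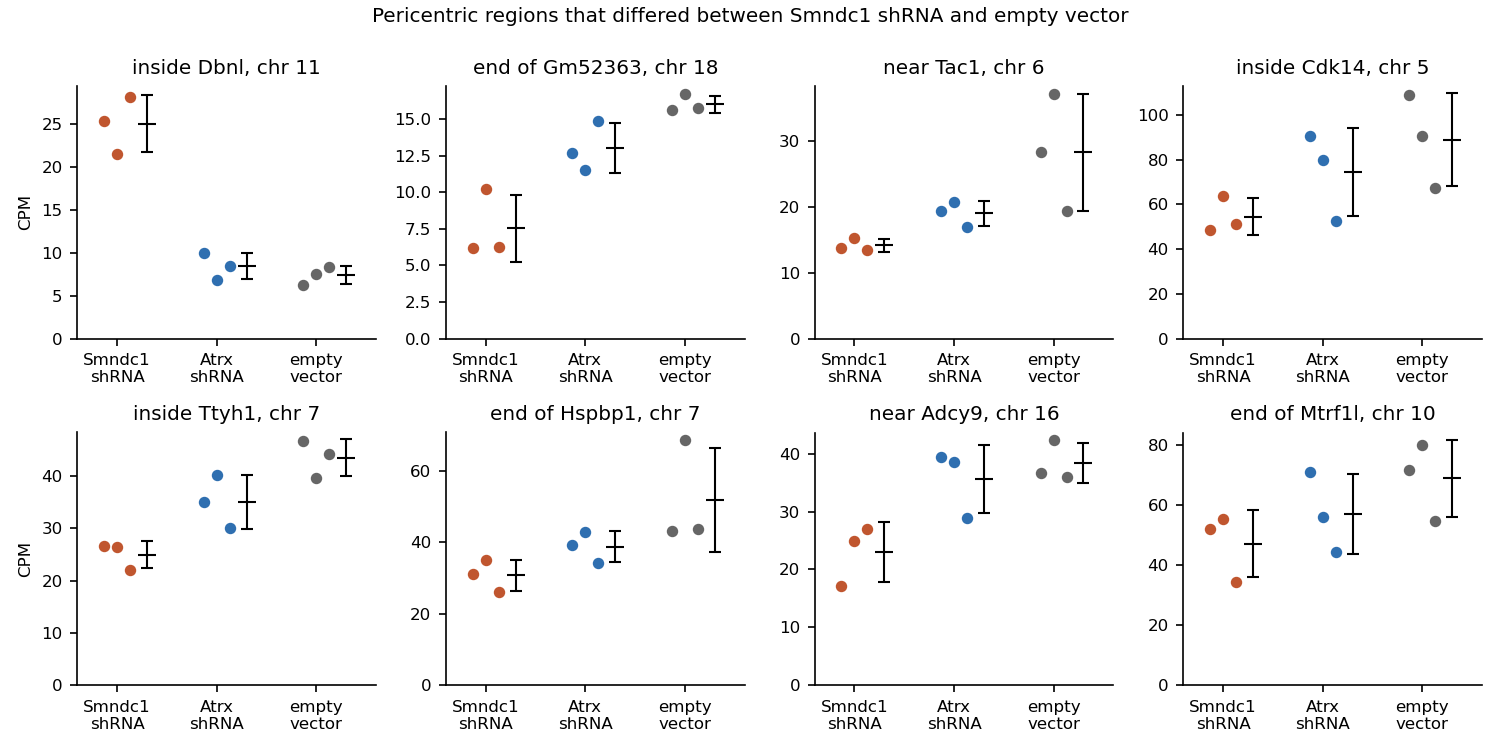
CPM in each library (points) with mean and SD (black) for the 3 pericentric regions called with TMM factors between Smndc1 shRNA and empty vector, and the 5 further regions with the smallest adjusted p under trended offsets. Dbnl is the region with the widest gap; at the Mtrf1l end the Smndc1 shRNA and empty vector libraries overlap.

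Smndc1 shRNA was also set against Atrx shRNA. With TMM factors 1 pericentric region was higher and 2 were lower with Smndc1 shRNA, 0.0925% of those tested, beside 0.0759% of all regions (0.0224% higher and 0.0535% lower). At an unadjusted p under 0.05 there were 141 (4.35%), beside 5.4% of all regions. Beside Dbnl, these were a region 47.95 kb from Cnksr3 (chr10:7260187-7261433) and a region 503.14 kb from Nox3, an NADPH oxidase gene (chr17:4199405-4200063). Near Nox3 the libraries had 15.6, 18.6 and 18.3 CPM with Smndc1 shRNA, 46.1, 38.0 and 25.6 CPM with Atrx shRNA, and 25.5, 27.4 and 24.4 CPM with empty vector. Both other groups lie above all 3 Smndc1 shRNA libraries and overlap each other. The difference was -1.06 ± 0.24 (adjusted p = 0.0474, called in 2 of 9 fits that leave out 1 library) with TMM factors and -1.02 ± 0.17 (adjusted p = 2.84e-05, called in all 9) with trended offsets. With TMM factors only the fits without replicate 3 of Atrx shRNA or of empty vector kept it.

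Near Cnksr3 the libraries had 4.26, 6.78 and 6.94 CPM with Smndc1 shRNA and 16.5, 14.7 and 14.6 CPM with Atrx shRNA, and empty vector stood between at 8.59, 8.69 and 7.04 CPM. The difference was -1.36 ± 0.26 (adjusted p = 0.0287), lost without Smndc1 shRNA replicate 1, Atrx shRNA replicate 1 or 2, or empty vector replicate 1. Under trended offsets the calls were 4 higher and 10 lower, 0.432% of those tested, beside 0.586% of all regions (0.2% higher and 0.386% lower). One of them lies inside U2af2 and near an end of Ccdc106 (chr7:5061482-5062582); U2af2 encodes the large subunit of the U2 auxiliary splicing factor. It had 51.8, 67.8 and 35.7 CPM with Smndc1 shRNA, 95.9, 75.2 and 62.7 CPM with Atrx shRNA, and 67.5, 73.4 and 44.5 CPM with empty vector (-0.55 ± 0.12, adjusted p = 0.00389, called in all 9 fits). Its raw levels overlap between the shRNA groups, with replicate 3 the lowest of each group. Over the whole window the libraries did not overlap at 152 regions that were higher (4.69%, beside 5.03% of all regions) and 159 that were lower (4.90%, beside 5.15%), together 9.59%, beside 10.2% of all regions. At gene ends they did not overlap at 26 pericentric regions that were higher with Smndc1 shRNA (5.04%, beside 4.63% of all gene-end regions). At 7 they were lower (1.36%, beside 1.66%), together 6.40%, beside 6.29% of all gene-end regions.

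Genes that act in pericentric heterochromatin were followed across the genome. Of 26 such genes 25 have a gene-end region, 35 regions in all, and none was called in any comparison by either fit. Their median log2 fold change was -0.03 with Smndc1 shRNA and -0.01 with Atrx shRNA, beside 0.02 and 0.01 over all regions. Some lie in the window itself. Suv39h2, a histone H3 lysine methyltransferase gene (chr2:3474210-3475109), averaged 27.9 CPM with Smndc1 shRNA, 29.8 CPM with Atrx shRNA and 27.7 CPM with empty vector. Kmt5b (chr19:3767693-3769127) averaged 56.9 CPM with Smndc1 shRNA, 50.7 CPM with Atrx shRNA and 51.1 CPM with empty vector. Kmt5c (chr7:4739563-4740304) averaged 73.9 CPM with Smndc1 shRNA, 70.8 CPM with Atrx shRNA and 82.1 CPM with empty vector. The DNA methyltransferase gene Dnmt3a is also in the window, with regions in its body: the strongest (chr12:3807764-3808820) averaged 38.5 CPM with Smndc1 shRNA, 37.7 CPM with Atrx shRNA and 32.0 CPM with empty vector. At Atrx, on X, the end region averaged 20.2 CPM with Atrx shRNA and 22.1 CPM with empty vector (-0.13 ± 0.24, adjusted p = 0.987).

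Islet and hormone genes have 104 regions in the window, over 26 genes. None was called with TMM factors, and with trended offsets 1 of 103 tested fell with Smndc1 shRNA, where 1.12% of all regions were called, and 0 were called with Atrx shRNA, where 0.266% of all regions were. The median log2 fold change was -0.02 with Smndc1 shRNA and -0.08 with Atrx shRNA, beside 0.02 and 0.01 over all regions. The strongest were the ends of Ogdh, Xbp1 (a transcription factor of the unfolded protein response) and Pcx (pyruvate carboxylase). At Xbp1 the mean was 96.0 CPM with Smndc1 shRNA, 91.6 CPM with Atrx shRNA and 87.1 CPM with empty vector, with log2 fold changes of 0.14 ± 0.27 for Smndc1 shRNA and 0.07 ± 0.27 for Atrx shRNA. At Pcx it was 67.7 CPM with Smndc1 shRNA, 69.2 CPM with Atrx shRNA and 79.2 CPM with empty vector. The end of Men1, the menin tumor suppressor gene, averaged 29.2 CPM with Smndc1 shRNA, 29.0 CPM with Atrx shRNA and 30.3 CPM with empty vector. That of Insr, the insulin receptor gene, averaged 31.8 CPM with Smndc1 shRNA, 29.0 CPM with Atrx shRNA and 36.1 CPM with empty vector.

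For the other lists the same shares over all regions apply: 0.156% with TMM factors and 1.12% with trended offsets for Smndc1 shRNA, and 0% and 0.266% for Atrx shRNA. The chromatin list, 57 regions at 11 genes, had none by either fit. Its strongest region, at an end of Arid1b, averaged 76.8 CPM with Smndc1 shRNA, 82.8 CPM with Atrx shRNA and 67.5 CPM with empty vector. The RNA list, 103 regions at 11 genes that include 63 at the splicing regulator Rbfox1, also had none. The ends of Sf1 (branch point binding protein) and Sf3b2 (a U2 snRNP subunit) stood at 0.01 ± 0.27 and -0.16 ± 0.24 with Smndc1 shRNA against empty vector. The growth and survival list, 110 regions at 12 genes, had the Cdk14 region as its 1 call, with Smndc1 shRNA under trended offsets. The strongest end of that list, at the Hippo pathway gene Nf2, averaged 95.6 CPM with Smndc1 shRNA, 97.0 CPM with Atrx shRNA and 109 CPM with empty vector.

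Regions with no overlap between groups but no call are given as values; those below were taken for their large fold changes, a choice that favours weak regions. With Atrx shRNA against empty vector and TMM factors, those with the largest differences included a region inside Lats1, a Hippo pathway kinase gene, with 5.14, 3.05 and 6.49 CPM with Atrx shRNA and 1.93, 0.778 and 1.88 CPM with empty vector (1.69 ± 0.52, adjusted p = 0.543), and, on the lower side, a region 61.38 kb from Tiam2 with 0.803, 1.53 and 2.6 CPM with Atrx shRNA and 4.59, 2.72 and 8.45 CPM with empty vector (-1.66 ± 0.52, adjusted p = 0.572). A region inside Morc2a, an ATPase gene of the MORC family, had 3.85, 3.63 and 6.01 CPM with Atrx shRNA and 11.7, 9.73 and 7.51 CPM with empty vector (-1.09 ± 0.31, adjusted p = 0.432). With Smndc1 shRNA, a pair of regions 9.25 kb and 13.38 kb from Nox3 stood at 1.62 ± 0.52 and 1.78 ± 0.65 (adjusted p = 0.236 and 0.368).

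Promoter sequence was compared, as a description with no test, between starts with and without an open region. Of 974 coding genes with an end in the window, 694 matched the RefSeq table, with 900 promoters of 250 bases. Of these, 432 overlapped a consensus region, and some genes have promoters of both kinds. GGGCGG was present on either strand in 63.0% of the promoters with an open region, 25% of those without and 42.6% of 21263 promoters genome-wide. CCGGAAG, the core of ETS factor sites, was in 15.5% of promoters with an open region, 3.42% of those without and 8.98% genome-wide. CCAAT was in 38.9% with an open region, 27.8% without and 35.4% genome-wide. TTAGGG was in 9.95% with an open region, 8.12% without and 9.36% genome-wide. The mean base composition differs too, at 61.0% G and C with an open region and 52.2% without.

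Because ATRX is known to act at DNA that can form G-quadruplexes, promoters with 4 runs of GGG separated by 1 to 7 bases on either strand were also counted. They made up 25.9% of those with an open region and 19.8% of all promoters, and Suv39h2 among the printed promoters is one. The open regions at such pericentric promoters had a median log2 fold change of -0.02 with Atrx shRNA over 98 regions, and those at promoters without the pattern -0.04 over 270 regions. With Smndc1 shRNA the medians were -0.03 and -0.04. Some regions hold promoters of both kinds and are counted in each set. With trended offsets the medians were -0.01 with the pattern and -0.03 without it for Atrx shRNA, and 0.04 with it and -0.001 without it for Smndc1 shRNA. Of the 349 promoter regions, 0 were called in either comparison with TMM factors, beside 0.156% of all regions for Smndc1 shRNA and 0% for Atrx shRNA. With trended offsets 6 were called with Smndc1 shRNA, beside 1.12% of all regions, and 0 with Atrx shRNA, beside 0.266%. The 6 are those of Hspbp1, Mtrf1l, Sac3d1, Esrra, Zfp78 and Olfr1347, given above.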

How the data were processed

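ATAC-seq libraries of 9 alphaTC1 cultures were sequenced as 75 bp paired-end reads, per the labels' protocols. The authors deposited raw counts for 80827 consensus regions on mm10 (GRCm38). The submitters' processing notes name Bowtie2 2.4.4, MACS2 2.2.7.1, deepTools 3.5.1 and bedtools 2.27.1. What each tool did, the merging of peaks and the unit that was counted (reads, fragments or cuts) were not given in the sources used here. Replicates differed by more than sampling noise, so all 9 were kept.

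Counts were tested with edgeR 4.0.16 in R 4.3.3 (glmQLFit with robust dispersion, filterByExpr with a minimum count of 10, all 9 libraries, 1 coefficient per group), adjusted by Benjamini-Hochberg over all 80345 tested regions or 523 bins. SE is the fold change over the root of F. Trended offsets were loess curves (limma 3.58.1, span 0.3). The fits were tested on simulated data. Gene bounds and promoters came from RefSeq (GRCm38.p6); the promoter table is not complete. Shares were tested over libraries with Python 3.11.15 and numpy 2.4.6, and figures drawn with matplotlib 3.10.9. With 3 libraries a group, p-values measure the spread between these libraries only.

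Regions were named by rule: those called against empty vector (the 10 largest per direction), and the 5 highest and 5 lowest fold changes without overlap at a mean log2 CPM of at least 1, for both fits; the strongest and the first region of each autosome; and the 4 strongest of each gene list. Other named regions, such as those called between the shRNAs, were chosen after their values were seen. The members, lists and rules were chosen with earlier results of these data known. Alternatives were DESeq2 1.42.0, other size factors and filters, only the 6 libraries compared, leaving out each library or replicate 3 throughout, the replicate block, other windows, and windows without chromosome 5, 11 or 19. Some listed genes and the calls at them are not reported here.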

Additional observations from a re-analysis of the deposited data

How the results depend on the processing

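Counts of called regions depended on the processing more than levels did. With TMM factors the 3 calls of Smndc1 shRNA against empty vector became 29 with trended offsets, 22 without replicate 3 of every group, 8 at a mean count of at least 50, 5 with only the 6 libraries compared, 1 with DESeq2 and 1 at an adjusted p under 0.01. Leaving out 1 library gave 1 (without Smndc1 shRNA replicate 1) to 25 (without empty vector replicate 3), and 3 (without empty vector replicate 2) to 45 (without empty vector replicate 3) with trended offsets. The 0 calls of Atrx shRNA against empty vector became 4 with trended offsets, 4 without replicate 3 of every group and 1 with 6 libraries. Leaving out 1 library gave 0 to 1, and with trended offsets 0 to 12, against 13 without replicate 3 of every group. The 3 calls between the shRNAs became 14 with trended offsets, 8 without replicate 3 and 1 at an adjusted p under 0.01, with 0 to 5 and, for trended offsets, 4 to 17 over libraries left out. Shares over all regions are given above for TMM factors and trended offsets only, so the other counts are not set against the genome. The cause was not tested.

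The differences in pericentric share lay within the spread of libraries and changed sign (percentage points). For Smndc1 shRNA against empty vector the difference was -0.0176 without chromosome 19 and -0.00462 to 0.0527 over libraries left out. For Atrx shRNA it was -0.00764 with trended offsets, -0.0157 for starts under 6 Mb, -0.0056 without chromosome 5, -0.00889 without chromosome 19 and -0.0315 to 0.0398 over libraries left out. Between the shRNAs it was -0.0191 without chromosome 11, -0.00872 without chromosome 19 and -0.0137 to 0.0488 over libraries left out.

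The labels number the replicates alike, but whether the numbers pair the samples is not stated and the values do not settle it. Deviations of same-numbered libraries correlated at -0.016, 0.142 and 0.333 (replicates 1, 2 and 3) between Smndc1 shRNA and empty vector. They correlated at 0.238, 0.021 and 0.406 between Atrx shRNA and empty vector, and at -0.046, 0.029 and 0.297 between the shRNAs. Replicate 3 correlated best with its own number in every comparison. For Atrx shRNA each library correlated best with its own number in empty vector; Smndc1 shRNA replicates 1 and 2 did not. With the replicate block the calls were 42 for Smndc1 shRNA, 9 for Atrx shRNA and 20 between the shRNAs. With the replicate block and trended offsets they were 74, 25 and 37. For bins summed from counts divided by the trended offsets, the replicate block called 4 first bins for Smndc1 shRNA, where 71 of all 523 bins were called. Shares over all regions are not given for these fits, so the counts do not set the window apart from the genome. Of the named regions' 625 alternative values, 395 kept direction and side of the threshold, 230 kept direction and lost the call, and 0 reversed. Many of these regions were named for a call or a large fold change, and the alternatives reuse mostly the same libraries. Few reversals could therefore arise. Of 237 alternative values of the summary results, 173 stayed the same. A median of 27 to 38 counts per pericentric region and library limits what weak regions can show.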
